A study of Homo sapiens with 4 samples.

Results

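Cadherin, claudin and CEACAM (carcinoembryonic antigen-related cell adhesion molecule) genes were followed in MG-63 and Saos-2, a pair of osteosarcoma lines. The members were the genes whose probe sets carry exactly 1 symbol made of CDH, CLDN or CEACAM and a number, and the brightest probe set by its mean over the 4 arrays stood for each gene. This gave 57 of the 33458 genes with a named probe set, namely 21 cadherins, 24 claudins and 12 CEACAM genes, from 59 probe sets in all. Total RNA was hybridised to 4 Affymetrix arrays, 2 for each line: 1 after transfection of sh-NC, the control hairpin, and 1 after transfection of sh-circ_0000073, a hairpin RNA directed at the circular RNA hsa_circ_0000073. Both lines derive from human bone tumours, and no array was from untransfected cells. The sample titles name the transfected RNAs si-NC and si-hsa_circ_0000073, whereas the sample characteristics have sh-NC and sh-circ_0000073, which are the names used here. No probe set was matched to the circular RNA, so its knockdown has no value here. The values are log2 signals, and the 4 arrays had medians between 3.74 and 3.75.

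Cadherins are membrane proteins that bind a cadherin of the neighbouring cell in the presence of calcium and are tied to actin inside the cell by β-catenin and α-catenin. Claudins form the strands of tight junctions and set which ions pass between cells, while CEACAM proteins are immunoglobulin-type receptors that bind themselves or each other and, in the case of CEACAM1, carry inhibitory signals. In bone, osteoblasts are known for CDH2 (N-cadherin) and CDH11 (OB-cadherin), whereas CDH1 (E-cadherin), most claudins and CEACAM5 belong to epithelia.

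A log2 signal of 6 was taken as the level above background, which is a level set here and not a detection call of the arrays. In MG-63, 9 of the 57 genes lay above it on both arrays (CDH2, CDH3, CDH6, CDH11, CDH18, CDH24, CLDN1, CLDN11 and CLDN12), CDH8 on 1 array, and 47 on neither. In Saos-2, 9 lay above it on both arrays (CDH2, CDH3, CDH8, CDH11, CDH12, CDH15, CDH18, CDH24 and CLDN12), CDH23 and CEACAM1 on 1 array each, and 46 on neither. Over all genes, 32.7% (MG-63) and 32.4% (Saos-2) were above 6 on both arrays of the line. By family, 6 cadherins and 3 claudins passed on both arrays in MG-63 and 8 cadherins and 1 claudin in Saos-2, and no CEACAM gene passed on both arrays of a line. In all, 14 of the genes passed on at least 1 array, 6 passed on all 4 (CDH2, CDH3, CDH11, CDH18, CDH24 and CLDN12), and 43 passed on none.

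**Figure D1:**
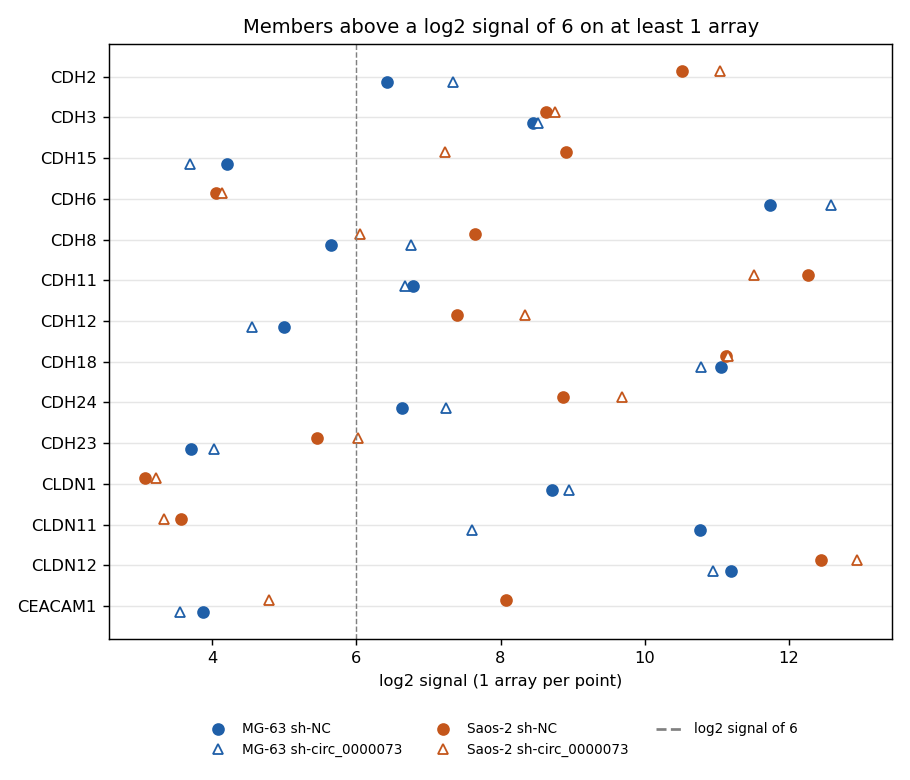
Log2 signal (horizontal axis) of the 14 cadherin, claudin and CEACAM genes above a log2 signal of 6 on at least 1 array, with 1 point per array, blue for MG-63 and orange for Saos-2, filled circles for sh-NC and open triangles for sh-circ_0000073. CDH6, CLDN1 and CLDN11 lie to the right of the dashed line at 6 only in MG-63, CDH12, CDH15, CDH23 and CEACAM1 only in Saos-2.

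Of the classical type I cadherins, CDH2, the N-cadherin of nerve and mesenchymal cells, read 6.42 (sh-NC) and 7.34 (sh-circ_0000073) on the log2 scale in MG-63, but 10.51 and 11.04 in Saos-2. Both Saos-2 arrays were above both MG-63 arrays, and in each line the sh-circ_0000073 array was the higher. CDH3, the P-cadherin first found in placenta, was at 8.45 and 8.52 in MG-63, against 8.63 and 8.75 in Saos-2, again with sh-NC first, as in all pairs of values that follow. All 4 arrays lay close together, but a second probe set of CDH3 read only 3.40 and 3.57, then 3.49 and 3.46, so the level of this gene depends on the probe set. CDH15, the M-cadherin of muscle precursors, was at 4.21 and 3.69 in MG-63, compared with 8.91 and 7.23 in Saos-2. Only the Saos-2 arrays were above background, and the sh-circ_0000073 array was the lower in both lines. CDH1, the E-cadherin of epithelia, was at 3.18 and 2.99 in MG-63, against 2.99 and 3.57 in Saos-2, near the array median everywhere.

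The type II cadherins, which lack the adhesion motif of type I, gave 6 of the 10 cadherins above background. CDH6, known as kidney or K-cadherin, had log2 signals of 11.73 and 12.58 in MG-63, compared with 4.05 and 4.14 in Saos-2. It was far above background in the first line and at background in the other. CDH11, the OB-cadherin named for osteoblasts, showed the opposite order with 6.78 and 6.68 in MG-63, against 12.26 and 11.52 in Saos-2. The MG-63 arrays were only just above 6. CDH12, a cadherin described mainly in brain, was at 5.0 and 4.55 in MG-63, compared with 7.40 and 8.34 in Saos-2. CDH18, likewise known from the nervous system, was at 11.05 and 10.78 in MG-63, against 11.13 and 11.15 in Saos-2. The lines were far apart for CDH12 and close for CDH18. CDH24, a type II cadherin that binds catenins, was at 6.63 and 7.24 in MG-63, compared with 8.86 and 9.69 in Saos-2, with the sh-circ_0000073 array the higher in both.

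CDH8, a further type II cadherin of the brain, differed between sh-NC and sh-circ_0000073 in opposite directions. On the log2 scale sh-NC gave 5.65 and sh-circ_0000073 gave 6.76 in MG-63, but 7.64 and 6.05 in Saos-2. The order of sh-NC and sh-circ_0000073 was thus reversed between the lines, and the 2 sh-circ_0000073 arrays were closer to each other than the 2 sh-NC arrays were. CDH23, which forms the tip links of inner ear hair cells, was at 3.71 and 4.03 in MG-63, against 5.46 and 6.03 in Saos-2. It passed 6 on 1 array by a margin of only a few hundredths.

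Among the claudins, 3 of 24 were above background on any array. CLDN11, the claudin of the myelin sheath and of Sertoli cells, read 10.76 (sh-NC) and 7.61 (sh-circ_0000073) on the log2 scale in MG-63, but 3.57 and 3.34 in Saos-2. Both MG-63 arrays stood above both Saos-2 arrays, which were at background, and the sh-circ_0000073 array of MG-63 was the lower. CLDN1, a main barrier claudin of skin and other epithelia, was at 8.71 and 8.95 in MG-63, compared with 3.07 and 3.23 in Saos-2. CLDN12, an unusual claudin without the PDZ-binding end of its relatives, was at 11.20 and 10.94 in MG-63, against 12.44 and 12.94 in Saos-2. CLDN1 thus shared the line pattern of CLDN11 with little difference between the arrays of a line, and CLDN12 was present in both lines. The other 21 claudins stayed under 6 on every array, with CLDN7, which passed 5 on all 4, the nearest at 5.43 and 5.96 in MG-63, compared with 5.30 and 5.18 in Saos-2.

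Of the 12 CEACAM genes, CEACAM1 alone passed 6. CEACAM1, the receptor first described as biliary glycoprotein, read 3.87 and 3.56 on the log2 scale in MG-63, but 8.07 (sh-NC) and 4.79 (sh-circ_0000073) in Saos-2. Thus 1 array of 4 was above background, and the others were not. CEACAM5, the carcinoembryonic antigen used as a tumour marker, was at 3.13 and 3.11 in MG-63, against 4.16 and 3.18 in Saos-2. CEACAM6 was at 4.05 and 4.13, then 4.30 and 4.13, and CEACAM19 at 5.35 and 5.38, then 5.02 and 5.05. CEACAM19 was the nearest of these to 6, and its 4 arrays lay close together.

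CLDN11, CLDN1 and CEACAM1 were at background in 1 line and above it in the other, CEACAM1 on its sh-NC array alone. The sequences before their start sites are shown, since these genes also differ in their density of CG dinucleotides. Each is the 250 bases upstream of a RefSeq start (build GRCh38.p14), 5′ to 3′ on the strand of the gene, with every CG in capitals. CLDN11 has 2 starts, with 29 CG at the first and 2 at the second.
CLDN11, first start, chr3:170418618-170418867, plus strand: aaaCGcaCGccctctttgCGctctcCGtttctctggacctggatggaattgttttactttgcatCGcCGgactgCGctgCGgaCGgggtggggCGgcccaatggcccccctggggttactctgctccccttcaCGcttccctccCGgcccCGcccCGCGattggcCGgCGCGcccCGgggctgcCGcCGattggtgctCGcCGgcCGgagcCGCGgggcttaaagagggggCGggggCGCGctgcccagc
CLDN11, second start, chr3:170420976-170421225, plus strand: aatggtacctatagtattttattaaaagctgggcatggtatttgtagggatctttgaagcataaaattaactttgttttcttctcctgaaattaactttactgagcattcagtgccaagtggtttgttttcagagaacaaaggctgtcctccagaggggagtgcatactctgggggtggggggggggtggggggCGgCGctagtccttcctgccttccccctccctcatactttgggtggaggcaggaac
CLDN1, chr3:190322447-190322696, minus strand: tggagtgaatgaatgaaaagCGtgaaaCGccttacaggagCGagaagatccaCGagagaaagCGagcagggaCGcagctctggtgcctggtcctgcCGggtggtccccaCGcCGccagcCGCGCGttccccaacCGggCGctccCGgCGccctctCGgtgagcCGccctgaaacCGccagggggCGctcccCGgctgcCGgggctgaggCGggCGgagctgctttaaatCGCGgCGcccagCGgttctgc
CEACAM1, chr19:42528482-42528731, minus strand: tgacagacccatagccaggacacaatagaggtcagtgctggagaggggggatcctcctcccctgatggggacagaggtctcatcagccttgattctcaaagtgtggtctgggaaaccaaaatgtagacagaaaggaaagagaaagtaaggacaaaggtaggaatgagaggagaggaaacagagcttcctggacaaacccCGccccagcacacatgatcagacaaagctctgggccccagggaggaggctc
CLDN1 holds 28 CG and CEACAM1 1. Of 35116 such windows over all genes, 14.7% hold at most 1 CG, 22.9% at most 2 and 15.9% at least 28. The letters GGGCGG, the core of a GC box, read on either strand, occur 3 times in the first CLDN11 window, 1 time in the second, 2 times in CLDN1 and 1 time in CEACAM1. They occur in 42.6% of all windows. RefSeq windows were matched to 40 of the 57 genes, 9 of the 14 above background and 31 of the others. Taking the start with most CG for each gene, the median was 17 CG (range 1 to 34) for the 9 and 4 (range 0 to 33) for the 31, against 12 over all 27305 genes. The 10 matched CEACAM genes, all but CEACAM1 among the 31, hold 1 to 6. A gene with more starts has more chances of a rich one, which the medians do not allow for. These counts describe the sequence and were set against no test.

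The question put to each line was which transcripts differ when sh-circ_0000073 takes the place of sh-NC. With 1 array per condition there is no replicate check within a line and no p-value, so a difference of more than 1.5-fold was counted by its size alone. In these bulk extracts fewer cells with a transcript cannot be told apart from less transcript per cell. In MG-63, 5 of the 57 genes (8.77%) were more than 1.5-fold higher with sh-circ_0000073 (CDH2, CDH6, CDH8, CDH24 and CLDN14), against 8.99% of all genes. In the same line 2 (3.51%) were more than 1.5-fold lower (CLDN11 and CLDN23), against 7.17% of all genes. In Saos-2, 3 (5.26%) were higher (CDH12, CDH22 and CDH24), against 8.97%, and 5 (8.77%) were lower (CDH8, CDH11, CDH15, CEACAM1 and CEACAM5), against 5.18%. The median log2 change of the 57 was 0.03 in each line, and that of all genes 0.02 in MG-63 and 0.06 in Saos-2. Each of these shares differed from that of all genes by only a few of the 57 genes. In MG-63 the 4 cadherins past the fold were all higher, and in Saos-2 there were 3 higher and 3 lower.

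The shares depend on signal level, so they were also taken apart at a log2 signal of 6. Of the 10 members above 6 on at least 1 MG-63 array, 4 were past 1.5-fold upward and 1 downward, beside 15.1% and 11.8% of the 11899 genes at this level. Of the 11 above 6 in Saos-2, 2 were higher and 4 lower, beside 16.5% and 9.02% of 11742 genes. Among members at or under 6 on both arrays, 1 of 47 was higher and 1 lower in MG-63, against 5.62% and 4.61% of genes at this level, and 1 of 46 each in Saos-2, against 4.92% and 3.11%. A gene near the level of 6 on 1 array of a line had to be high on that array to be counted with the first set, so no weight is placed on these shares.

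**Figure D2:**
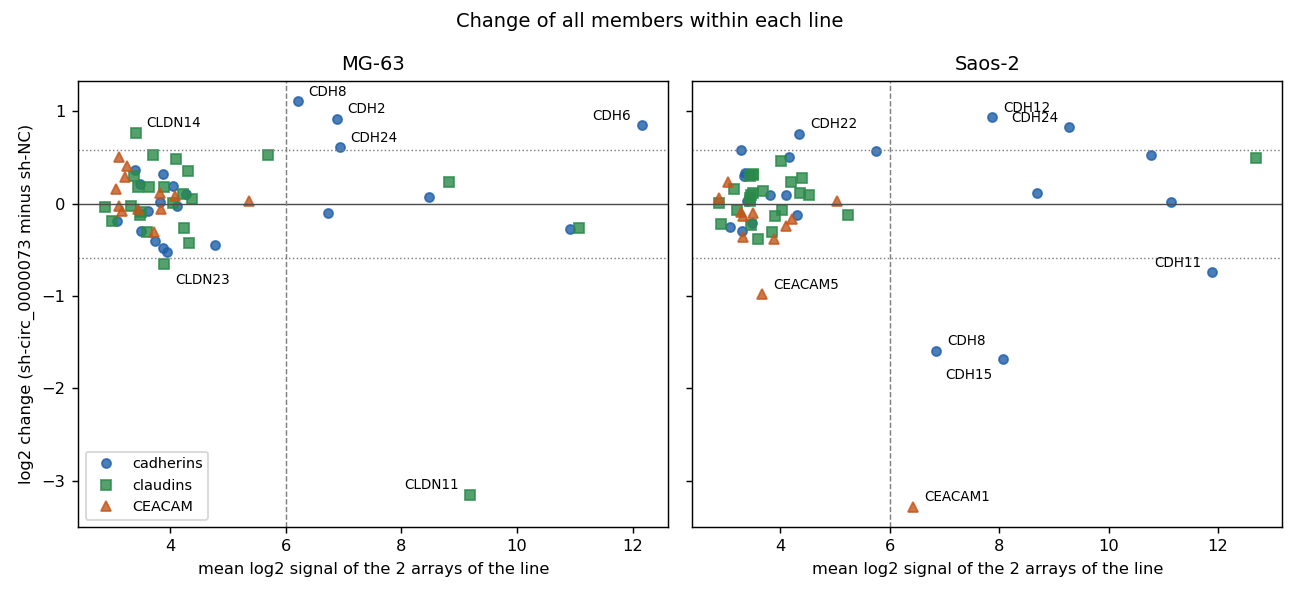
Log2 change of all 57 genes with sh-circ_0000073 against sh-NC (vertical axis) by the mean log2 signal of the 2 arrays of the line (horizontal axis), in MG-63 on the left and Saos-2 on the right, with 1 point per gene. Dotted lines mark 1.5-fold and the dashed line a log2 signal of 6; CLDN11 at -3.15 in MG-63 and CEACAM1 at -3.28 in Saos-2 lie farthest from 0.

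The 2 widest gaps within a line were decreases of single genes. CLDN11 was 8.88-fold lower with sh-circ_0000073 in MG-63 and held rank 5 among the decreases of the 11899 genes above background there, while in Saos-2 it was at background with a log2 change of -0.23. CEACAM1 had a log2 change of -3.28 in Saos-2 and was at background in MG-63 with -0.31. It held rank 3 among the decreases of 11742 genes in Saos-2. It entered that set through its sh-NC array alone, so no weight is placed on the rank. Since the sh-circ_0000073 array of CEACAM1 read 4.79, under the level of 6, it was at least 4.20-fold lower when that array is set to 6. Both genes were above background in only 1 line, CEACAM1 on its sh-NC array alone, so neither has a second line in which its difference could be read.

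Of the cadherins, CDH15 was 3.20-fold lower with sh-circ_0000073 in Saos-2, rank 64 among the decreases, with a log2 change of -0.52 at background in MG-63. CDH8 was 3.01-fold lower in Saos-2, rank 80 among the decreases. In MG-63, where its sh-NC array was under 6, it was at least 1.69-fold higher (measured log2 change 1.11). No weight is placed on its rank of 389 among the increases there, since only its sh-circ_0000073 array was above 6. CDH11 was 1.67-fold lower in Saos-2, with a log2 change of -0.10 in MG-63. CDH8 was the member past 1.5-fold in both lines with opposite signs, and whether its difference between the lines exceeds the error was not tested, since a model with that term leaves no residual degrees of freedom. CDH24 was past 1.5-fold in both lines in the same direction, at 1.53-fold and 1.78-fold higher, although in MG-63 it is so close to the limit that after quantile normalization its log2 change there was 0.54, under the limit of 0.585. CDH2 was higher by 1.89-fold in MG-63 and by 1.44-fold in Saos-2, and CDH6 1.80-fold higher in MG-63. CDH12 was 1.92-fold higher in Saos-2, with a log2 change of -0.45 under the level of 6 in MG-63. CDH3, CDH18, CDH23, CLDN1 and CLDN12 stayed within 1.5-fold in both lines, the widest being CDH23 in Saos-2 at a log2 change of 0.57.

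The 43 genes at or under 6 on every array had log2 signals between 2.81 and 5.96. Their log2 changes ran from -0.65 (CLDN23) to 0.77 (CLDN14, a claudin of the inner ear and kidney) in MG-63 and from -0.98 (CEACAM5) to 0.76 (CDH22, a cadherin of the brain) in Saos-2, with a median of 0.03 in each line. CLDN14 read 3.02 and 3.79 in MG-63, CLDN23 4.22 and 3.57, and CDH22 3.96 and 4.72 in Saos-2. Their signals lay near the array medians, and the second probe set of CDH22 read 4.23 and 3.90 in Saos-2, so the probe sets of this gene differed in sign. CDH5, the VE-cadherin of endothelium, was at 3.81 and 3.83 in MG-63, compared with 3.18 and 3.51 in Saos-2, and CLDN3, CLDN4 and CLDN5 were under 4 on all arrays.

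The comparison of MG-63 with Saos-2 asked which adhesion genes tell the lines apart. It was fitted with limma over all 36176 probe sets with 1 symbol, with the short hairpin RNA as a term and Benjamini-Hochberg adjustment at 0.05. The sources do not say whether the arrays came from separate cultures. Before moderation the fit has 1 residual degree of freedom per gene, which is how far the hairpin changes of the lines differ. The error behind its p-values comes from that difference, moderated over all probe sets, and not from a spread between replicates. In this fit 4 of the 57 genes (7.02%) were higher in MG-63, against 13.7% of all probe sets, and 8 (14.0%) were higher in Saos-2, against 11.9%. In either direction 12 (21.1%) were called, against 25.7% of all probe sets, and 13 had an unadjusted p under 0.05, against 34.6%. The share of members called in either direction was thus below that of all probe sets.

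Where a gene was at background in 1 line, its fold is given as a limit, beside the measured log2 difference. For this limit the mean of each line was taken first, and a mean under 6 was set to 6. CDH6 was at least 71.3-fold higher in MG-63 (measured log2 difference 8.06, standard error 0.31, adjusted p = 3.88e-06 from limma). CLDN1 was at least 7.11-fold higher in MG-63 (measured log2 difference 5.68, standard error 0.28, adjusted p = 1e-05 from limma). CLDN11 was at least 9.09-fold higher in MG-63 (measured log2 difference 5.73, standard error 0.60, adjusted p = 0.000345 from limma). The call for CLDN11 was lost without the Saos-2 sh-NC array (adjusted p = 0.0591 from limma) and without the Saos-2 sh-circ_0000073 array (0.0625). CDH17, the liver-intestine cadherin, was called with a log2 difference of 0.65 (standard error 0.18, adjusted p = 0.0303 from limma), although its 4 signals were 3.93 and 3.53 in MG-63, against 3.20 and 2.95 in Saos-2, all under background. Leaving out any array ended this call, with adjusted p from limma between 0.0729 and 0.294.

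Higher in Saos-2 were CDH11, with a log2 difference of -5.16 or 35.8-fold (standard error 0.30, adjusted p = 1.98e-05 from limma), and CDH2, by 14.9-fold (standard error 0.29 on the log2 scale, adjusted p = 5.99e-05 from limma). These are the cadherins known from osteoblasts. CDH12 was at least 3.66-fold higher there (measured log2 difference -3.10, adjusted p = 0.000723 from limma) and CDH15 at least 4.20-fold higher (measured log2 difference -4.12, adjusted p = 0.00012), the latter not called without the MG-63 sh-circ_0000073 array (0.0569). CDH24 was 5.06-fold higher (0.000698), with 0.0801 without the MG-63 sh-NC array and 0.0576 without the Saos-2 sh-circ_0000073 array. CDH23 was called with a measured log2 difference of -1.88 (0.00139) but has no fold here, since its mean in both lines was under 6, with 0.0606 without the MG-63 sh-NC array. CLDN12 was 3.07-fold higher (0.00382), and its adjusted p from limma was 0.0637 without the MG-63 sh-NC array, 0.0877 without the MG-63 sh-circ_0000073 array and 0.0765 without the Saos-2 sh-circ_0000073 array. CEACAM1, above 6 on the Saos-2 sh-NC array alone, was at least 1.35-fold higher (measured log2 difference -2.72, adjusted p = 0.0134 from limma), but its adjusted p was 0.0807 without its sh-NC array. The call for CEACAM1 was also lost without the MG-63 sh-NC array (0.297) and without the MG-63 sh-circ_0000073 array (0.337).

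Of the genes above background, CDH3, CDH8 and CDH18 were not called. The log2 differences, MG-63 minus Saos-2, were -0.21 (standard error 0.28, adjusted p = 0.679 from limma) for CDH3, -0.22 (standard error 0.26, adjusted p = 0.613) for CDH18 and -0.64 (standard error 0.57, adjusted p = 0.50) for CDH8. CDH8 has a wide error because its sh-NC and sh-circ_0000073 arrays were ordered in opposite ways in the lines. Of the 12 calls, 5 (CDH2, CDH6, CDH11, CDH12 and CLDN1) were kept under every alternative that gave a value, and 7 were lost under at least 1.

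**Figure D3:**
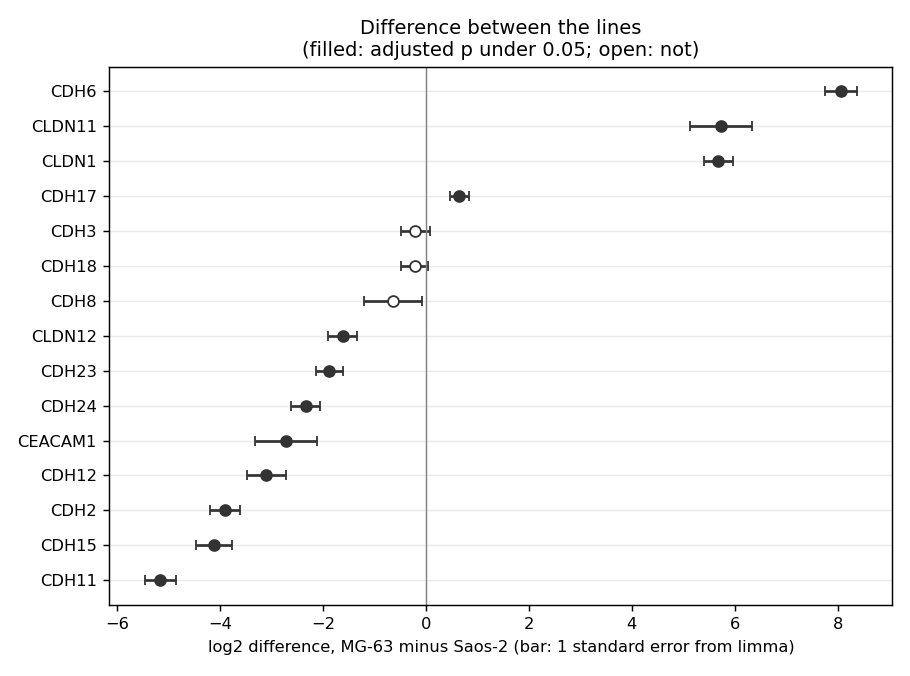
Log2 difference, MG-63 minus Saos-2 (horizontal axis), of the 14 genes above background on at least 1 array and of CDH17, with 1 standard error from limma as bars. Filled points are called at an adjusted p under 0.05 and open points are not; CDH6 lies at 8.06 and CDH11 at -5.16, and genes at background in 1 line are plotted at their measured difference.

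Taking the lines as replicates of the short hairpin RNA, with the line as a block, none of the 57 genes was called by limma in either direction. None of the 36176 probe sets was called either (0.0% higher and 0.0% lower). At an unadjusted p under 0.05 there were 7 members (CDH2, CDH15, CDH24, CEACAM1, CLDN11, CLDN14 and CLDN23) and 7.26% of all probe sets. CDH2 and CDH24 each had a mean log2 change of 0.72 over the lines (standard errors 0.29 and 0.28, adjusted p = 0.662 for each from limma). CDH15 had -1.10 (standard error 0.35, adjusted p = 0.614), CLDN11 -1.69 (standard error 0.60, adjusted p = 0.638) and CEACAM1 -1.80 (standard error 0.61, adjusted p = 0.63), all from limma. In the last pair nearly the whole mean came from 1 line, so the mean over the lines describes neither of them. A change mostly in 1 line also widens its own error in this fit, so the lack of a call for CLDN11 and CEACAM1 says little.

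The partners listed for the junction that cadherins form, the adherens junction, were all measured, 15 of 15. In MG-63, PKP4 and NECTIN2 were more than 1.5-fold higher with sh-circ_0000073 and JUP lower, beside 8.99% and 7.17% of all genes. In Saos-2 CTNNA2 was higher and CTNNB1 lower, beside 8.97% and 5.18% of all genes. JUP in MG-63 and CTNNA2 in Saos-2 were under 6 on both arrays. The median log2 change was -0.17 in MG-63 and -0.32 in Saos-2, beside 0.02 and 0.06 over all genes. In the line contrast 3 were called higher in Saos-2 and 2 in MG-63, beside 11.9% and 13.7% of all probe sets. None was called for the short hairpin RNA over both lines. CTNNB1, the β-catenin that binds the cadherin tail, had log2 signals of 12.53 and 12.28 in MG-63, compared with 17.02 and 16.34 in Saos-2, a log2 difference, MG-63 minus Saos-2, of -4.28 (standard error 0.21, adjusted p = 9.82e-06 from limma) with both Saos-2 arrays the higher. CTNNA1, the α-catenin that binds β-catenin, was at 15.99 and 15.77 in MG-63, against 14.00 and 13.68 in Saos-2, higher in MG-63 by 2.04 (standard error 0.19, adjusted p = 0.000173 from limma). The catenins were therefore present in both lines, in opposite order. CTNND1, the p120 catenin that holds cadherins at the membrane, was at 13.31 and 12.73, then 13.50 and 13.10, and NECTIN2, an adhesion receptor of the same junction, was at 6.98 and 7.72, then 7.48 and 7.16.

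Of the tight junction partners, 19 of 23 were measured, and 1 was more than 1.5-fold higher and 2 lower in MG-63, 3 higher and 2 lower in Saos-2, where 8.99% and 7.17% of all genes for MG-63, and 8.97% and 5.18% for Saos-2, passed the same fold. The median log2 change was -0.18 in the first line and 0.16 in the other. In the line contrast 4 were called higher in Saos-2 and 2 in MG-63, beside 11.9% and 13.7% of all probe sets. None was called for the short hairpin RNA. OCLN, occludin, which lies in tight junction strands beside claudins, was at 7.08 and 6.58 in MG-63, compared with 12.93 and 11.57 in Saos-2 (adjusted p = 2e-05 from limma). CXADR, an adhesion receptor at tight junctions, was at 5.75 and 5.44 in MG-63, against 11.48 and 12.84 in Saos-2 (adjusted p = 2.93e-05 from limma). Between the Saos-2 arrays the log2 change with sh-circ_0000073 was -1.36 for OCLN and 1.36 for CXADR. MPDZ, a scaffold that binds claudin tails, was at 11.37 and 10.71 in MG-63, compared with 7.56 and 7.73 in Saos-2, and TJP1, the ZO-1 scaffold, at 13.95 and 14.12, then 15.25 and 15.08. Occludin and CXADR were thus the higher in Saos-2 and MPDZ in MG-63.

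Desmosomal genes were measured in full (11 of 11), and 9 were at or under 6 in each line. PKP2, a plaque protein, was more than 1.5-fold lower with sh-circ_0000073 in MG-63, at 7.86 and 6.46, and at 4.55 and 4.39 in Saos-2. DSC2, a desmosomal cadherin, was at 4.34 and 4.43 in MG-63, against 8.00 and 8.42 in Saos-2. No other desmosomal gene passed the fold in either line, and the median log2 changes were -0.03 and -0.05. By limma 1 was called higher in MG-63 (PKP2) and 1 in Saos-2 (DSC2), beside 13.7% and 11.9% of all probe sets. The call for PKP2 was lost when either Saos-2 array was left out. Of 28 other genes of the cadherin superfamily measured out of 29, 1 was called higher in MG-63 and 7 in Saos-2, beside 13.7% and 11.9% of all probe sets. Of the 7, CLSTN3 and PCDH11X were under 6 on every array, and their calls were lost whichever array was left out. FAT1, a giant cadherin, was at 11.63 and 11.42 in MG-63, compared with 16.68 and 16.72 in Saos-2. FAT3 was at 3.68 and 3.76, then 11.05 and 9.78, and PCDH7, a protocadherin, at 3.84 and 4.14, then 11.03 and 10.57. With sh-circ_0000073, 2 of the 28 were more than 1.5-fold higher in MG-63 (PCDH18, at 10.06 and 11.13, and FAT4, at 10.30 and 11.05) and 2 were lower (DCHS1, at 6.70 and 5.95, and PCDH19, under 6 on both arrays). In Saos-2 none was higher and 1 (FAT3) was lower, and these counts stand beside 8.99% higher and 7.17% lower over all genes for MG-63, and 8.97% and 5.18% for Saos-2.

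The pregnancy-specific glycoproteins, secreted relatives of CEACAM proteins from the same gene family on chromosome 19, showed another pattern than CEACAM1. All 10 on the list were measured. In the line contrast 8 were called higher in MG-63 and none in Saos-2, beside 13.7% and 11.9% of all probe sets. Of the 8, PSG2, PSG3 and PSG11 were under 6 on all 4 arrays. PSG5 was at 11.67 and 11.04 in MG-63, against 4.93 and 5.83 in Saos-2, and PSG1 at 9.99 and 8.49, then 3.32 and 3.79. With sh-circ_0000073, 3 were more than 1.5-fold lower in MG-63 (PSG1, PSG5 and PSG9) and 4 more than 1.5-fold higher in Saos-2, but all Saos-2 signals were under 6. Of all genes, 7.17% were lower in MG-63 and 8.97% higher in Saos-2 by this fold. The median log2 change of the list was -0.17 in the first line and 0.47 in the other. These genes are near-identical copies, so their probe sets may share signal and cannot be counted as separate genes. Of the partners of CEACAM signalling, SRC, a kinase that phosphorylates the CEACAM1 tail, was at 9.90 and 11.37 in MG-63, compared with 5.38 and 5.47 in Saos-2, PTPN11 (SHP-2), a phosphatase that binds it, at 12.09 and 12.55, then 11.29 and 12.39, and PTPN6 (SHP-1) near 3 on all arrays. Of the 4 partners measured, SRC was called higher in MG-63, and it was 1.47 higher on the log2 scale with sh-circ_0000073 there.

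**Figure D4:**
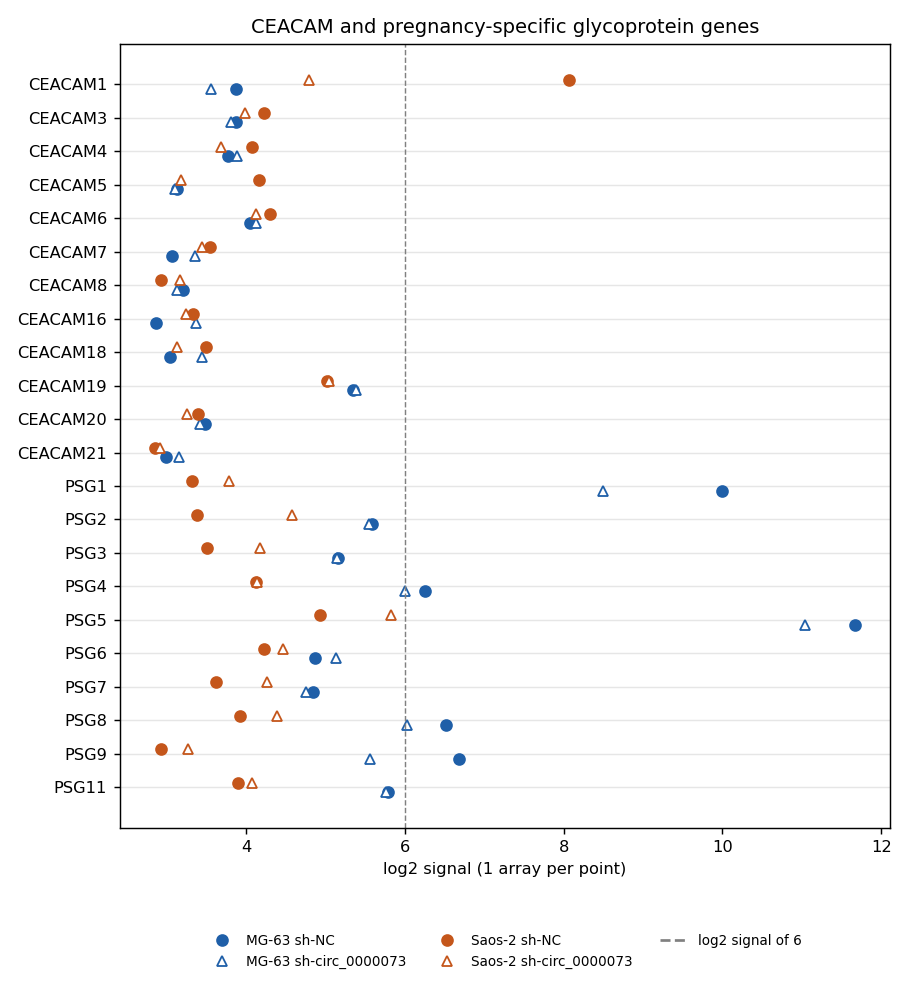
Log2 signal (horizontal axis) of the 12 CEACAM genes and the 10 pregnancy-specific glycoprotein genes (PSG), with 1 point per array, blue for MG-63, orange for Saos-2, filled for sh-NC and open for sh-circ_0000073, and a dashed line at 6. CEACAM1 passes 6 on the Saos-2 sh-NC array alone, at 8.07, whereas the PSG genes pass it only in MG-63, led by PSG5 at 11.67.

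Transcription factors known to repress CDH1 were measured in 9 of 9, and 2 were more than 1.5-fold higher and 3 lower in MG-63, 2 higher and 1 lower in Saos-2, beside 8.99% and 7.17% of all genes for MG-63, and 8.97% and 5.18% for Saos-2. ZEB1 was at 15.60 and 16.22 in MG-63, against 13.38 and 13.59 in Saos-2, and SNAI2 (Slug) at 12.65 and 12.84, then 14.89 and 15.55. TWIST2 was at 9.38 and 8.23 in MG-63, compared with 5.85 and 5.63 in Saos-2, and SNAI1 (Snail) at 6.21 and 5.12, then 3.79 and 3.92. TCF3, a further repressor, was at 6.82 and 7.91, then 6.72 and 6.98. In the line contrast 4 were called higher in MG-63, or 2 to 3 when 1 array was left out, and 1 in Saos-2. Of all probe sets, 13.7% were called higher in MG-63 and 11.9% in Saos-2. The median log2 changes of the repressors were -0.11 and 0.21, and CDH1 stayed at background on all 4 arrays.

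Markers of other cell types were set beside these levels. Of the epithelial markers, 9 of 10 were measured and 3 passed 6 in each line. The log2 of their signals summed on the linear scale was 9.20 and 9.12 in MG-63, against 10.12 and 10.22 in Saos-2. The sums of the lists below were taken the same way, and the brightest gene weighs most in each. EPCAM, a defining epithelial marker, was at 3.26 and 3.43 in MG-63, compared with 9.45 and 9.59 in Saos-2, where both arrays are above background. The keratin genes KRT8, at 7.77 and 7.57, then 7.17 and 7.69, and KRT18, at 6.99 and 6.14, then 7.48 and 7.03, were above 6 on all arrays, KRT19 in MG-63 alone at 6.73 and 7.61, and KRT5 and KRT14 were under 4 on all arrays. In the line contrast KRT19, ESRP1 and GRHL2 were called higher in MG-63, which became 0 to 2 genes when 1 array was left out, and EPCAM was called higher in Saos-2, as OCLN was and CLDN1 and CLDN11 were not. The part of EPCAM in these differences was not tested. ESRP1 and GRHL2 were under 6 on every array, so their calls lie at background. Of all probe sets, 13.7% were called higher in MG-63 and 11.9% in Saos-2. No endothelial marker (6 of 6 measured) passed 6, with sums of 6.41 and 6.44, then 6.0 and 6.09, and no myelin glia marker (3 of 5 measured) did, with sums of 5.88 and 6.23, then 5.98 and 5.98. CLDN11 of MG-63 was therefore present without MBP, which was at 2.92 and 3.11. Of the immune markers, 4 of 5 were measured, with sums of 8.37 and 8.79 in MG-63, against 6.31 and 6.18 in Saos-2. CD14 was above 6 in MG-63, at 8.05 and 8.54, while PTPRC, which defines blood cells, stayed between 3.84 and 4.30. The osteoblast and mesenchymal genes (6 of 6 measured) had sums of 18.98 and 19.04 in MG-63, compared with 17.87 and 17.66 in Saos-2, and all but ALPL in MG-63 passed 6 in both lines. RUNX2, the master regulator of osteoblasts, was at 7.57 and 7.72 in MG-63, against 16.53 and 16.39 in Saos-2, higher in Saos-2 as CDH2 and CDH11 were. The list was split, with 3 called higher in Saos-2 (RUNX2, ALPL and COL1A1) and 3 in MG-63 (COL1A2, SPARC and VIM). The calls for COL1A1 and COL1A2 were lost in most of the fits with 1 array left out. VIM, the intermediate filament protein of mesenchymal cells, was at 18.60 and 18.58 in MG-63, compared with 13.32 and 13.77 in Saos-2.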

How the data were processed

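The deposited table holds log2 signals per probe set, which the authors made with Affymetrix Expression Console after TRIzol extraction and the GeneChip WT Pico Reagent Kit. The software version, the summarisation and any correction for background are not stated in the sources used. Of 135750 probe sets, 36176 carried 1 symbol in the platform annotation (1119 several, 98455 none). Symbols were updated by Entrez ID or unique synonym in a RefSeq table of GRCh38.p14, which changed 623 names and none among the members. CDH4 and CDH13 were not analysed here. Groups follow the labels.

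Changes are sh-circ_0000073 minus sh-NC on the log2 scale. Within a line a difference past 1.5-fold was counted, without a p-value. Over all 4 arrays, limma 3.58.1 in R 4.3.3 was fitted to all 36176 probe sets. The terms were line and short hairpin RNA, with trend, and p-values were adjusted by Benjamini-Hochberg (threshold 0.05). The fit was also run on simulated data with independent noise on each array. For the line it called 92 of 100 probe sets changed by a log2 of 2 and 100 of 100 changed by 4. It also called 40 of 35976 unchanged ones. For the short hairpin RNA these counts were 87, 100 and 14. In each contrast the unchanged ones were a larger share of the calls than 0.05. Hairpin changes that differ between the lines were not simulated. Python 3.11.15, pandas 2.3.3, numpy 2.4.6 and matplotlib 3.10.9 served for the rest. The number of arrays limits the precision. Alternatives were other background levels, centring, quantile normalization, the mean of the probe sets of a gene, a 2-fold threshold, a level minimum, other limma settings and each array left out in turn, with the cell line as the only term. Named are every member above log2 6 on at least 1 array, the largest changes among the dimmer members, and of each other list the up to 4 largest changes above 6 and the defining markers. CTNNA1, TJP1, FAT1, ZEB1 and the further dim members were named after their values were seen. The members and gene lists were chosen with earlier results of these data known. No protein sequences were used here.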

Additional observations from a re-analysis of the deposited data

Results flagged for a closer look

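CDH8, a type II cadherin of the brain, stands out because its arrays moved in opposite directions in the lines. Its log2 change with sh-circ_0000073 was 1.11 in MG-63 and -1.59 in Saos-2, a difference of 2.70 on the log2 scale. The difference between the lines was not tested, because each line has 1 array per condition.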

How the results depend on the processing

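The 9 genes above background in MG-63 and the 9 in Saos-2 became 12 and 12 at a log2 level of 5 and 6 and 8 at 7. With a 2-fold in place of a 1.5-fold threshold, the counts in MG-63 were 1 higher and 1 lower (5 and 2 at 1.5-fold) and those in Saos-2 0 higher and 3 lower (3 and 5). Restricted to a log2 level of at least 6 on at least 1 array of the line, 1 gene was lower in MG-63. Centring, quantile normalization and the mean of the probe sets of a gene moved the log2 changes of the 14 genes by at most 0.12, and only CDH24 in MG-63 crossed 1.5-fold, under quantile normalization; the sign of CDH18 in Saos-2, at 0.02, turned to -0.04 after centring and -0.10 after quantile normalization. In the line contrast 4 genes were higher in MG-63, but 2 at a mean log2 level of at least 6, where fewer genes are tested, and 2 to 3 when 1 array was left out. The 8 higher in Saos-2 became 4 to 7 when 1 array was left out, where fewer samples enter the fit and the lone array of a line is assumed to vary like those of the other. The same fits called 1 to 3 of the adherens partners, 2 to 3 of the tight junction partners and 4 to 5 of the other cadherin genes higher in Saos-2, and 6 to 8 of the pregnancy-specific glycoproteins higher in MG-63. CDH17 was also lost without the trend (adjusted p = 0.0749 from limma), and CEACAM1 with the cell line as the only term (0.0553). Over both lines none of the 57 genes was called for the short hairpin RNA under any of the 5 alternatives. The number of arrays limits these calls, and signals under 6 were taken as background.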
